A study of Mus musculus with 15 samples.

Results

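Saa3 and 6 other acute phase genes, Saa1, Saa2, Lcn2, C3, Hp and Ptx3, were followed in every RNA-seq library of a beta-actin study in mouse embryonic fibroblasts (MEFs) driven towards bone. The 7 genes were taken from a list of names among 46603 gene identifiers in the deposited count files. Saa3 was chosen by its count, the highest of any gene in a library of the heterozygous group, and the others by their known place in the acute phase response with earlier results in view, so the levels in that group are given as a description without a test.

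The cells were BALB/c fibroblasts from embryos of 10.5 days with both copies of Actb, the gene of beta-actin (WT), with 1 copy (HET) or with none (KO), all from 1 outside laboratory. Every group was grown to confluence on Matrigel and moved at day 0 to an osteogenic medium, OsteoMax-XF, with dexamethasone, a synthetic glucocorticoid, and forskolin, an activator of adenylate cyclase. RNA was taken at day 4 from WT and KO cells and at day 14 from WT, KO and HET cells, with 3 libraries in each of the 5 groups. All cells, WT included, had thus received both compounds, and no untreated culture was analysed here. The labels tie no replicate to an embryo, cell line or separate culture, so p-values measure only the spread between these libraries, which may be technical.

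The acute phase response is the set of plasma and tissue proteins that cells make after infection or injury, mainly under the cytokines interleukin-6 (IL-6), interleukin-1 (IL-1) and tumour necrosis factor. Transcription factors of the C/EBP family, STAT3 and NF-kB act on their promoters, and glucocorticoids are known to add to the induction of several of them. In the mouse, Saa1 and Saa2 encode the serum amyloid A proteins of the liver, while Saa3 is the serum amyloid A made by fibroblasts, fat cells and macrophages.

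The promoters are shown because C/EBP sites are a known shared feature of acute phase genes. The 250 bases before the RefSeq transcription start (build GRCm38.p6) were available for 6 of the 7 genes, not for Hp. A search of both strands for TTGCNNAA, the core of the palindromic C/EBP site, matched once in each of the 6, against 9.56% of 32851 promoters of the same length. The promoters of Saa3, of the near-identical pair Saa1 and Saa2, and of Ptx3 follow 5′ to 3′ on the strand of the gene, with that match in capitals. Saa3 lies at chr7:46715677-46715926 on the minus strand, Saa1 at chr7:46742981-46743230 on the minus strand, Saa2 at chr7:46751583-46751832 on the plus strand and Ptx3 at chr3:66219637-66219886 on the plus strand.
Saa3: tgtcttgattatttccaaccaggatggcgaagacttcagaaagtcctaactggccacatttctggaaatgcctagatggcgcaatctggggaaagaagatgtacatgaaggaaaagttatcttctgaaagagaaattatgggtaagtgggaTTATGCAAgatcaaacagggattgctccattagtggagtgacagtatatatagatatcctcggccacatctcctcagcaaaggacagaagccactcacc
Saa1: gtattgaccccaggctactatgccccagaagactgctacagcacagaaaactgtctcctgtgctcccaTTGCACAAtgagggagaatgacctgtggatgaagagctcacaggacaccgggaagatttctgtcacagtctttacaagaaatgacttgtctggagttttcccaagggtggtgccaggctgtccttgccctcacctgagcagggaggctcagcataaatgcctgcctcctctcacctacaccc
Saa2: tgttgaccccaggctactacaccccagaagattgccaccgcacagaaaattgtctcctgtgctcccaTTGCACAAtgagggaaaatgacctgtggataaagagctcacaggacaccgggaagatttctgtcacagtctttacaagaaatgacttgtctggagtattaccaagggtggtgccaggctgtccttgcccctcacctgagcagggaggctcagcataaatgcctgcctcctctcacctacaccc
Ptx3: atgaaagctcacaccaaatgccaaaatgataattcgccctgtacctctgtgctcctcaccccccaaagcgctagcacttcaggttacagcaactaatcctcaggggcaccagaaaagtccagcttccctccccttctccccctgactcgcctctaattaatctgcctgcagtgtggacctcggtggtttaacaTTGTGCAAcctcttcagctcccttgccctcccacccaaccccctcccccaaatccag

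The match began 99 bases before the start in Saa3, 182 in Saa1, 183 in Saa2, 57 in Ptx3, 216 in Lcn2 and 45 in C3. No promoter of the 6 held TTCNNNGAA, the core of a STAT site, which was present in 7.02% of all promoters, or TATAAA, present in 12.4%. The NF-kB motif was matched in none of the 6 and in 7.25% of all promoters. These are matches of letters in a short window and no measure of binding. The Saa1 and Saa2 promoters were identical in 94.8% of 251 aligned columns, whereas Saa1 and Saa3 shared 52.2% of 295. Saa3, Saa1 and Saa2 lie close together on chromosome 7, with Saa3 at chr7:46711998-46715700 (ENSMUSG00000040026), Saa1 at chr7:46740497-46742980 (ENSMUSG00000074115) and Saa2 at chr7:46751790-46754313 (ENSMUSG00000057465), in GRCm38. Saa4, the constitutive member of the family, lies between Saa3 and Saa1, at chr7:46727998-46732603.

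The libraries held 19878449 to 47486736 gene counts, and 15296 genes, all 7 acute phase genes among them, passed the filter on low counts. Levels are CPM (counts-per-million, relative to the library's total) after TMM scaling, and tests are edgeR quasi-likelihood tests over all 15 libraries with Benjamini-Hochberg adjustment over all tested genes and a threshold of 0.05. Actb, the targeted gene, lay between 1164 and 1193 CPM in the WT libraries of day 4 and between 2945 and 3063 in those of day 14. Its level in the KO libraries was 129.8 to 139 CPM on the earlier day and 43.0 to 46.5 on the later, and the HET libraries held 1436 to 1640 CPM, so no library went against its label. The cells are labelled as osteoblasts, but Dmp1, Ibsp, Bglap and Sp7, which define that lineage, were each below 1 CPM in every group. HET replicate 2 stood apart from the other 2 HET libraries: against HET replicate 1, the median log2 ratio of all genes was 0.376 for the 3810 shortest transcripts, up to 1663 bases, and -0.325 for the 3810 longest, from 4283 bases. The 3 WT libraries of day 14 differed in the same manner to a lesser degree, with 0.208 and -0.201 for replicate 3 against replicate 1. The Saa transcripts, of 555 to 652 bases, belong to the shortest set and the C3 transcript, of 5136 bases, to the longest. Most log2 changes and ratios that use the HET group are therefore followed by the value without HET replicate 2, and some by values corrected for transcript length and GC content, whereas HET means in CPM are over all 3 libraries.

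Saa3, a secreted lipid-binding protein and inflammatory signal, was the most abundant of the 7 transcripts per kilobase in every group. At day 4 its level was 911, 926 and 951 CPM in the WT libraries and 385, 382 and 379 in the KO libraries. On day 14 the values were 5679.6, 6784 and 7594 CPM in WT, 2004, 1950.2 and 1988 in KO, and 10741, 17061 and 10981 in HET. No 2 groups overlapped, and the order from low to high was KO at day 4, WT at day 4, KO at day 14, WT at day 14 and HET at day 14. The HET mean was 12927 ± 3582 CPM (SD, n = 3), against 6686 ± 961 in WT and 1981 ± 27.5 in KO at day 14.

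In KO cells Saa3 was lower than in WT by 1.28 ± 0.14 (SE) log2 units at day 4 (log2 fold change -1.28, edgeR adjusted p = 5.24e-07) and by 1.76 ± 0.14 at day 14 (-1.76, adjusted p = 2.78e-08). Both genotypes gained Saa3 with time: the log2 rise from day 4 to day 14 was 2.85 ± 0.14 in WT (edgeR adjusted p = 6.23e-11) and 2.37 ± 0.14 in KO (adjusted p = 8.68e-10). The rise in KO minus the rise in WT was -0.47 ± 0.19 (adjusted p = 0.0418), but this difference lost its call under RLE scaling (adjusted p = 0.0537), in DESeq2 (0.0563), after the length and GC correction (-0.07, adjusted p = 0.268), and in 11 of the 12 fits that left out 1 library (adjusted p = 0.0666 to 0.118), all but the fit without WT replicate 1 of day 14 (0.0151). Saa3 in HET was 1.93 times the WT level at day 14 (log2 0.95 ± 0.14) and 1.62 times without HET replicate 2. After the length and GC correction the HET libraries lay between 10628 and 11898 CPM and the WT libraries between 5299 and 5805, again without overlap.

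Saa3 took 1.07%, 1.63% and 1.10% of all counts in HET replicates 1, 2 and 3 and ranked first in each, ahead of the translation factor gene Eef1a1. It ranked second to Eef1a1 in all 3 WT libraries of day 14, with 0.608% to 0.797% of counts, and 13th or 14th in the KO libraries of that day, with 0.199% to 0.204%. Per kilobase of transcript, Saa3 was the first gene of every WT and HET library at day 14 and the second of every KO library. At day 4 it ranked 4th or 5th per kilobase in WT and 46th or 47th in KO. Together the 7 genes held 1.58% to 2.19% of the counts in HET libraries at day 14, while WT libraries of that day gave 1.02% to 1.22% and KO libraries 0.651% to 0.659%. On day 4 their share was 0.156% to 0.159% for WT libraries and 0.213% to 0.217% for KO libraries. Of the counts of the 7 genes on day 4, Saa3 made up 53.7% to 55.4% among WT libraries but 18.0% to 18.2% among KO libraries. Because these are bulk cultures, fewer cells making a transcript and less transcript per cell cannot be told apart.

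**Figure D1:**
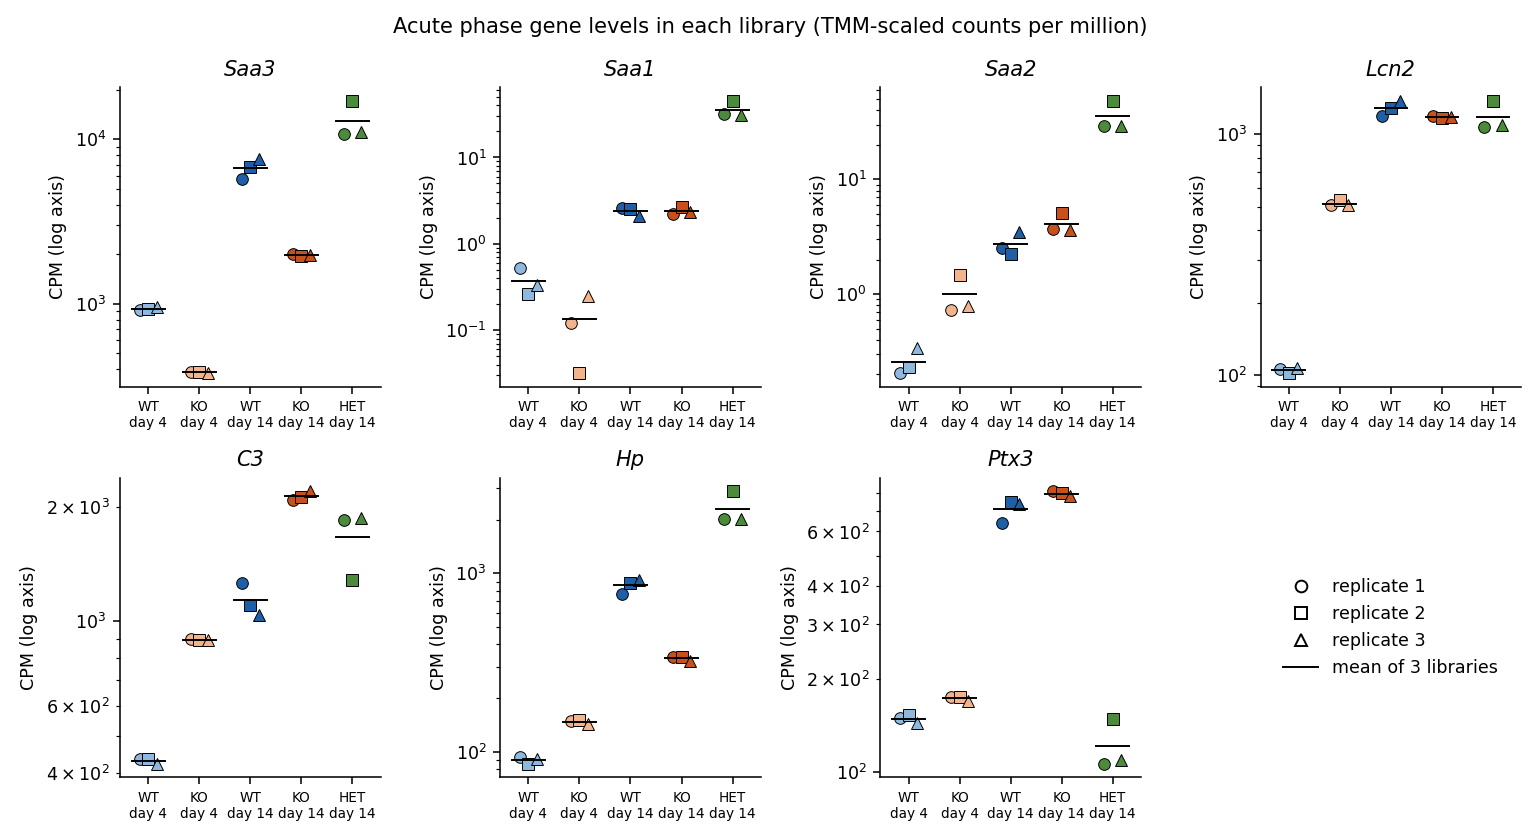
Level of each of the 7 acute phase genes in each library, in TMM-scaled CPM on a log axis (points, shaped by replicate number; lines, mean of 3 libraries). Saa3 separates all 5 groups, Saa1 and Saa2 are highest in HET cells at day 14, and Ptx3 in HET cells is below its level in the WT and KO cells of day 14.

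**Figure D2:**
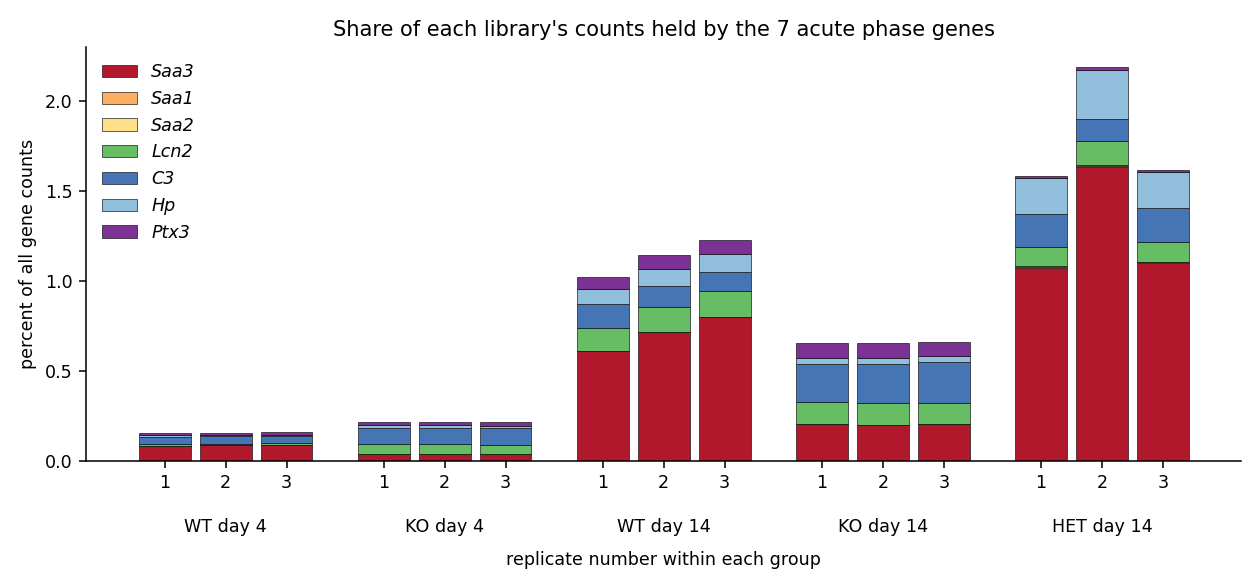
Percent of all gene counts held by each of the 7 genes in each library, stacked, by group and replicate number. Saa3 fills most of the bar in HET and WT cells at day 14 and a smaller portion in KO cells, and the HET replicate 2 bar, at 2.19%, is the tallest.

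Saa1 and Saa2, the liver forms that circulate on high-density lipoprotein, were far below Saa3 in every library. Saa1 was counted 23, 10 and 8 times in the WT libraries and 4, 1 and 9 times in the KO libraries at day 4. Its day 14 counts were 56, 55 and 45 in WT, 52, 59 and 59 in KO, and 658, 860 and 687 in HET. Saa1 was thus highest in all HET libraries, at 31.5, 45.2 and 30.9 CPM, while WT (2.42 ± 0.28 CPM, SD, n = 3) and KO (2.41 ± 0.26) overlapped at day 14. Saa2 was counted 9, 9 and 8 times in WT and 24, 46 and 29 times in KO at day 4. At day 14 Saa2 was counted 54, 48 and 74 times in WT, 88, 111 and 91 times in KO, and 614, 920 and 652 times in HET. Its 5 groups did not overlap in CPM, and its order, WT at day 4, KO at day 4, WT at day 14, KO at day 14 and HET, differed from that of Saa3.

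Saa1 was 14.8 times its WT level in HET at day 14 (log2 3.88 ± 0.21), or 12.9 times without HET replicate 2, and Saa2 13.1 times (3.70 ± 0.25), or 10.8 times without it. KO cells at day 14 lay below HET by 3.90 ± 0.21 log2 units for Saa1 (log2 fold change -3.90, or -3.70 without HET replicate 2) and by 3.11 ± 0.23 for Saa2 (-3.11, or -2.84). Both rose with time in both genotypes, Saa1 by log2 2.64 ± 0.35 in WT (edgeR adjusted p = 1.68e-06) and 4.07 ± 0.52 in KO (2.03e-07), and Saa2 by 3.45 ± 0.50 in WT (1.64e-06) and 2.06 ± 0.31 in KO (2.35e-05). At day 4 the genes passed in opposite directions in KO against WT, Saa1 at log2 -1.44 ± 0.58 (edgeR adjusted p = 0.0241) and Saa2 at 1.98 ± 0.52 (0.00147). The Saa1 call rests on few counts and was lost without WT replicate 1 (adjusted p = 0.148), KO replicate 1 (0.0625) or KO replicate 2 (0.092). At day 14 neither passed, with Saa1 at -0.01 ± 0.25 (adjusted p = 0.972) and Saa2 at 0.59 ± 0.28 (0.0763), although Saa2 passed under the length and GC correction (0.96, adjusted p = 0.000321), with no filter on low counts (0.00292), with the replicate block (0.041), within the day 14 WT and KO libraries alone (0.0336) and without WT replicate 3 of day 14 (0.0438).

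The 2 transcripts were identical in 87.3% of 655 aligned columns, and 13.2% of the 50-base windows of Saa1 also occur in Saa2, but none of its 100-base windows does. The read length is not given in the sources used here, so how well reads were split between the pair is uncertain. Their counts were therefore also summed, a choice made after the data had been seen. The sum was higher in KO than in WT at day 4 (log2 0.83 ± 0.35, edgeR adjusted p = 0.0418), did not pass at day 14 (0.34 ± 0.21, 0.169), and rose with time in WT (3.02 ± 0.31, 7.42e-08) and in KO (2.53 ± 0.26, 2.27e-07). In HET the sum, over all 3 libraries, was higher than in WT by log2 3.79 ± 0.19. For every 1000 Saa3 counts WT libraries held 0.533 to 0.802 counts of Saa1 and Saa2 on day 4 and 0.704 to 0.903 on day 14. The KO libraries held 2.20 to 3.93 on day 4 and 2.95 to 3.98 on day 14, and the HET libraries 5.48 to 5.67, so the ratio was narrow among the 3 HET libraries although their Saa3 levels were not. Saa4 had few counts at day 4, with 0, 1 and 0 in WT and 6, 1 and 11 in KO (edgeR adjusted p = 0.00232 for KO against WT, with too few counts for a fold), and reached 66, 54 and 87 counts in HET at day 14. The HET level of Saa4, 3.31 ± 0.56 CPM (SD, n = 3), was above the WT level of 0.667 ± 0.109 (log2 2.30 ± 0.38, edgeR adjusted p = 6.1e-05, and 2.40 without HET replicate 2).

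Lcn2, a lipocalin that binds bacterial iron carriers, was lowest in WT cells at day 4. It lies at chr2:32384633-32388252 on the minus strand (ENSMUSG00000026822). Its level there was 106, 102 and 108 CPM, against 508, 532 and 506 in KO at day 4. By day 14 Lcn2 was at 1185, 1285 and 1373 CPM in WT, 1192, 1172 and 1174 in KO, and 1072, 1375 and 1092 in HET, and these 3 groups overlapped. Lcn2 was higher in KO than in WT at day 4 by log2 2.29 ± 0.08 (edgeR adjusted p = 1.07e-12), and the genotypes did not differ by the test at day 14 (-0.12 ± 0.08, 0.202). After the length and GC correction KO passed as higher at day 14 (log2 0.20, adjusted p = 7.3e-06), with WT at 1003 ± 10.2 CPM and KO at 1154 ± 3.78. The rise with time was 3.60 ± 0.08 in WT (adjusted p = 1.49e-14) and 1.19 ± 0.08 in KO (3.16e-09), and the rises differed by -2.41 ± 0.11 (4.61e-11).

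Hp encodes haptoglobin, which binds free haemoglobin, and lies at chr8:109575128-109579172 on the minus strand (ENSMUSG00000031722). It stood at 93.9, 85.9 and 90.7 CPM in WT and at 149.7, 150.0 and 143.6 in KO at day 4. The day 14 values of Hp were 762, 883 and 924 CPM in WT, 338, 341 and 324 in KO, and 2005, 2877 and 2009.8 in HET, with no overlap among the 5 groups. KO was thus above WT at day 4 (log2 0.71 ± 0.11, edgeR adjusted p = 3.25e-05) and below it at day 14 (-1.36 ± 0.11, 4.04e-08). The rise with time was 3.25 ± 0.11 in WT (adjusted p = 1.45e-12) and 1.18 ± 0.11 in KO (1.95e-07), a difference of -2.07 ± 0.16 (1.25e-08). Hp in HET was 2.68 times the WT level, or 2.34 times without HET replicate 2, and its order at day 14, KO, WT and HET, was that of Saa3.

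C3, the central component of complement, differed from the Saa genes in being highest in KO cells at day 14. It lies at chr17:57203970-57228136 on the minus strand (ENSMUSG00000024164). It stood at 434, 435 and 422 CPM in WT and at 896, 891 and 893 in KO at day 4. The day 14 values of C3 were 1261, 1107 and 1037 CPM in WT, 2086, 2124 and 2196 in KO, and 1849.8, 1281 and 1871 in HET. All KO libraries lay above all WT libraries on both days, and the lowest HET library, replicate 2, lay just above the highest WT library. C3 was higher in KO by log2 1.05 ± 0.11 at day 4 (edgeR adjusted p = 3e-07) and by 0.91 ± 0.11 at day 14 (2.45e-06). It rose by 1.40 ± 0.11 in WT (adjusted p = 9.67e-09) and 1.26 ± 0.11 in KO (6.33e-08), and the rises did not differ by the test (-0.14 ± 0.15, 0.428). After the length and GC correction that difference was -0.24 with an adjusted p of 0.0027. HET was 1.47 times WT for C3, or 1.64 times without HET replicate 2.

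Ptx3, a long pentraxin that tags microbes and takes part in the hyaluronan matrix, was the only one of the 7 with its lowest mean in HET cells. It lies at chr3:66219910-66225805 on the plus strand (ENSMUSG00000027832). It stood at 149.9, 152 and 144 CPM in WT and at 175, 174 and 169.9 in KO at day 4. At day 14 it stood at 639, 745 and 737 CPM in WT and 808, 796 and 779.6 in KO, but at 106, 148 and 109 in HET. The HET libraries overlapped the WT libraries of day 4 and lay below all other groups. The WT level at day 14 was 5.83 times the HET level, or 6.56 times without HET replicate 2 (log2 fold change of HET against WT -2.54 ± 0.10), and KO lay above HET by log2 2.71 ± 0.10, or 2.88 without that library. Ptx3 rose with time by 2.25 ± 0.10 in WT (edgeR adjusted p = 1.18e-11) and 2.20 ± 0.10 in KO (2.64e-11), with a difference of -0.05 ± 0.14 (0.754). KO against WT did not pass at day 4 (0.22 ± 0.10, 0.0521) or day 14 (0.17 ± 0.10, 0.137). Both passed under the length and GC correction (adjusted p = 0.00316 and 0.00139), with no filter on low counts (0.00572 and 0.00448) and within the libraries of each day alone (7.02e-11 and 0.0307). The day 4 difference also passed with a filter at 1 CPM (0.0485) and with the replicate block (0.0374).

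**Figure D3:**
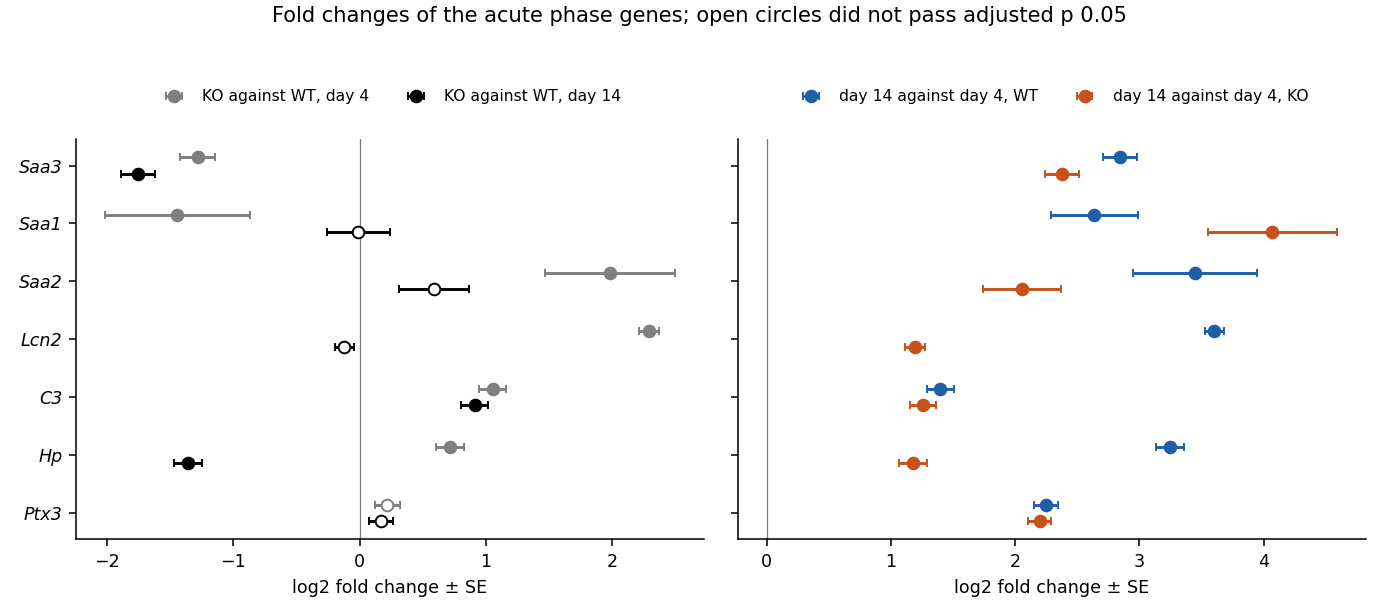
Log2 fold change ± SE of the 7 genes in KO against WT at each day (left) and in day 14 against day 4 within each genotype (right), with open circles for adjusted p of 0.05 or more. All points in the right panel are above 0, whereas in the left panel Saa3 is below 0 on both days, C3 is above 0 on both days and Hp changes side.

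Counted together, 4 of the 7 genes were higher and 2 lower in KO at day 4, when 35.7% of all tested genes were higher and 33.8% lower. At day 14, 1 was higher and 2 were lower, against 30.9% and 32.2% of all genes. All 7 rose from day 4 to day 14 in WT, where 39.7% of genes rose and 34.9% fell, and all 7 rose in KO, where 30.8% rose and 30.1% fell. The largest edgeR adjusted p among the 7 was 1.68e-06 in WT and 2.35e-05 in KO. Their median log2 change with time was 2.85 in WT and 2.06 in KO, against 0.08 and 0 over all tested genes. The rise differed between genotypes for 5 of the 7, higher in KO for Saa1 and lower for Saa3, Saa2, Lcn2 and Hp, in a comparison where 30.7% of genes passed higher and 34.0% lower. The Saa1 and Saa2 differences were 1.43 ± 0.63 (edgeR adjusted p = 0.0435) and -1.39 ± 0.59 (0.0392), and leaving out single libraries took their adjusted p up to 0.185 and 0.124. In HET against WT the libraries did not overlap for 6 of the 7 genes (all but Lcn2), as for 54.3% of all genes. In KO against HET they did not overlap for 6 of 7, as for 61.8% of all genes. The comparisons share WT, KO or HET libraries, so their values are set side by side and not counted as separate evidence.

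The ratio of HET replicate 2 to the mean of replicates 1 and 3 was 1.57 for Saa3, 1.45 for Saa1, 1.64 for Saa2, 1.27 for Lcn2, 1.43 for Hp, 1.38 for Ptx3 and 0.689 for C3. The 6 genes with transcripts of 1898 bases or less were all higher in replicate 2, and C3, the longest, was lower. After the length and GC correction the SD of Saa3 over the HET libraries was 676 CPM around a mean of 11129, and that of C3 was 155 around 1762. The part of transcript length in the differences between groups was not tested beyond this correction.

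**Figure D4:**
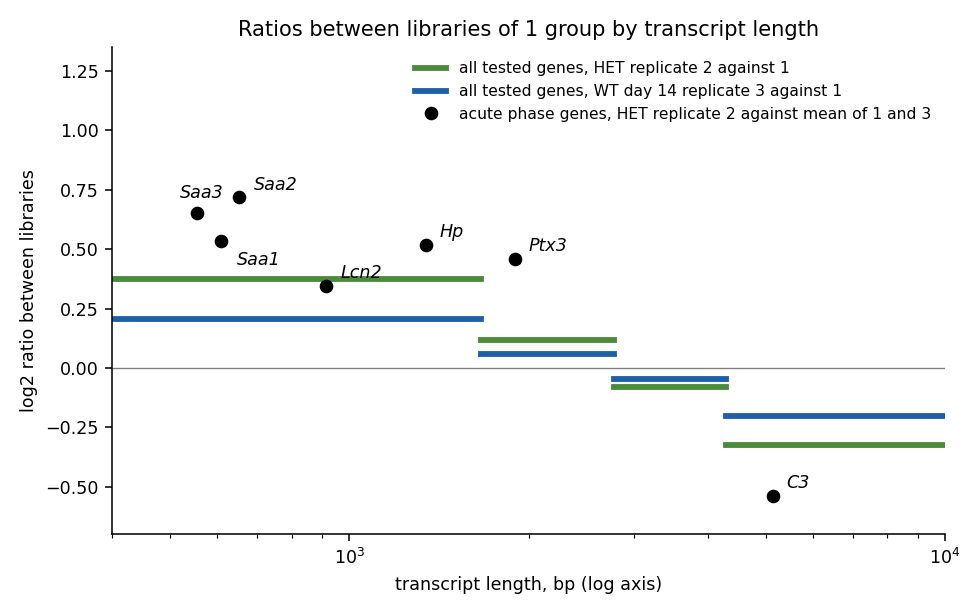
Log2 ratio between libraries of 1 group against transcript length in bp (log axis): bars are medians over 4 length classes of all tested genes for HET replicate 2 against 1 and WT replicate 3 against 1 at day 14, and points are the 7 genes in HET replicate 2 against the mean of replicates 1 and 3. Both sets of bars fall from short to long transcripts, and the points of the 6 shorter genes lie above 0 and that of C3 below it.

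Among the regulators, the list of IL-6 family, STAT3 and C/EBP genes (20 of 21 tested) held 7 higher and 11 lower genes in KO at day 4, against 35.7% of all genes higher and 33.8% lower, with a median log2 change of -0.26 against 0.03 over all genes. At day 14 it held 4 higher and 7 lower, against 30.9% and 32.2% of all genes, with a median of 0.02 against -0.02. Cebpb and Cebpd, the C/EBP factors best known from the acute phase, were lower in KO on both days. Cebpb stood at 202 ± 9.28 CPM (SD, n = 3) in WT and 111 ± 6.07 in KO on the earlier day, and at 412 ± 59.0 and 290 ± 8.39 on the later (log2 -0.86 and -0.51, edgeR adjusted p = 2.46e-05 and 0.00299). Cebpd was lower in KO by log2 -1.31 ± 0.13 at day 4 (edgeR adjusted p = 1.63e-07) and -0.96 ± 0.13 at day 14 (8.09e-06). Both rose with time in both genotypes, Cebpb by log2 1.03 in WT and 1.38 in KO. In HET, Cebpb was 422 CPM, close to WT (log2 0.03 ± 0.13, edgeR adjusted p = 0.837, and -0.19 without HET replicate 2, 0.055), and Cebpd was lower than in WT (-0.88 ± 0.13, 2.09e-05, and -1.11 without it).

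The mean of Il6 itself was 83.9 CPM for WT and 27.9 for KO cells on day 4, then 122 for WT, 98.2 for KO and 46.3 for HET cells. It was lower in KO on both days (log2 -1.58 and -0.31, edgeR adjusted p = 1.78e-09 and 0.0143) and lower in HET than in WT (-1.40 ± 0.10, 1.63e-08, and -1.59 without HET replicate 2), where Saa3 was highest. Its receptor gene Il6ra and Stat3, the transcription factor that the receptor activates, went the other way at day 14. Stat3 stood at 189 CPM in WT, 355 in KO and 378 in HET (log2 0.91 and 1.00 against WT, edgeR adjusted p = 1.11e-08 and 3.78e-09, with HET at 1.08 without HET replicate 2). Il6ra was above its WT level by 0.82 in KO (edgeR adjusted p = 7.83e-09) and by 0.96 in HET (1.33e-09, and 0.998 without HET replicate 2). Il11, an IL-6 family cytokine, fell from 218 CPM in WT at day 4 to 8.02 at day 14, and was 0.990 and 0.204 CPM in KO at the 2 times. In HET against WT the list held 7 higher and 9 lower genes (8 and 8 without HET replicate 2), in a comparison with 28.3% of all genes higher and 29.9% lower, and in KO against HET 8 higher and 8 lower, where 29.4% were higher and 30.1% lower.

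The list of IL-1, TNF, Toll-like receptor and NF-kB genes (29 of 30 tested) held 5 higher and 18 lower genes in KO at day 4, against 35.7% of all genes higher and 33.8% lower, with a median of -0.44. At day 14 it held 6 higher and 16 lower in KO, against 30.9% and 32.2%, with a median of -0.32. Of the same list 12 were higher and 12 lower in HET against WT (14 and 13 without HET replicate 2), against 28.3% and 29.9% of all genes. Tlr2, a receptor for bacterial lipoproteins through which serum amyloid A has also been reported to signal, was the opposite of the list's median in KO. Its mean was 9.90 CPM for WT and 28.3 for KO on day 4, then 33.3 for WT, 59.5 for KO and 122 for HET. It was higher in KO on both days (log2 1.51 and 0.84, edgeR adjusted p = 4.46e-11 and 5.63e-08) and in HET (1.87 ± 0.07, 5.64e-12, and 1.90 without HET replicate 2). The IL-1 receptor gene Il1r1 was higher in HET than in WT (log2 1.08 ± 0.08, edgeR adjusted p = 1.09e-08, and 1.18 without HET replicate 2), and Il1a, which encodes a ligand of that receptor, was lower, at 0.713 CPM against 6.92 (-3.28 ± 0.25, 6.47e-09, and -3.26 without that library). Nfkb1, which encodes an NF-kB subunit, was lower in KO at both days and in HET, by log2 -0.51, -0.53 and -0.54 (edgeR adjusted p = 1.61e-07, 1.83e-07 and 1.58e-07, with HET at -0.50 without HET replicate 2). Nfkbia, the NF-kB inhibitor gene that NF-kB itself induces, rose with time in WT (log2 1.81) and in KO (1.07), and was lower in KO than in WT at day 14 (-0.84 ± 0.09, 1.08e-06).

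Other acute phase genes (21 of 30 tested) held 12 higher and 6 lower in KO at day 4, against 35.7% of all genes higher and 33.8% lower. At day 14 they held 16 higher and 3 lower, against 30.9% and 32.2%, and their median was 1.37 against -0.02 over all genes. Serpina3n, a protease inhibitor, stood at 15.8 CPM in WT, 522 in KO and 178 in HET at day 14 (log2 5.05 ± 0.08 and 3.50 ± 0.08 against WT, edgeR adjusted p = 7.22e-16 and 3.2e-14, with HET at 3.52 without HET replicate 2). Orm1, an acid glycoprotein gene that shares sequence with its paralog Orm2, so that its reads may be split, stood at 22.1, 187 and 31.5 CPM in the same groups and was higher in KO on both days (3.57 ± 0.13 and 3.08 ± 0.09, 4.06e-13 and 3.33e-13). Lbp, the lipopolysaccharide binding protein, was highest in HET instead: it stood at 101 CPM in WT, 193 in KO and 245 in HET at day 14. Steap4, a metalloreductase, was lower in KO at day 4 (-2.38 ± 0.11, 6.77e-12) and higher at day 14 (0.66 ± 0.07, 1.58e-06). Il1rn, the IL-1 receptor antagonist, was among those that fell with time, from 19.9 to 1.07 CPM in WT and from 61.3 to 4.99 in KO. In HET against WT the list held 13 higher and 2 lower genes (12 and 3 without HET replicate 2), against 28.3% and 29.9% of all genes, with Serpina3n, Cd14 and Il1rn first among the higher by adjusted p. With time 11 rose and 6 fell in WT, against 39.7% and 34.9% of all genes, and 17 rose and 3 fell in KO, against 30.8% and 30.1%. Of 7 genes whose proteins fall in an acute phase response, Rbp4 was the only 1 that passed the filter, and it was lower in KO on both days, with no count in any KO library at day 4.

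Complement genes other than C3 (18 of 33 tested) held 10 higher and 5 lower in KO at day 4, against 35.7% of all genes higher and 33.8% lower, and 9 higher and 4 lower at day 14, against 30.9% and 32.2%. In HET against WT 10 were higher and 2 lower (11 and 2 without HET replicate 2), against 28.3% and 29.9%. C4a and C4b are paralogs, and how reads were split between them was not checked. C4a was higher in KO than in WT at day 14 (log2 2.79 ± 0.24, edgeR adjusted p = 4e-08). C4b, a classical pathway component, stood at 1.27 CPM in WT, 87.2 in KO and 4.05 in HET at day 14. Cfb, the alternative pathway partner of C3, stood at 5.25, 26.2 and 52.9 CPM in the same groups, and was higher than in WT by log2 2.32 ± 0.16 in KO (edgeR adjusted p = 3.72e-09) and by 3.33 ± 0.16 in HET (5.51e-11, and 3.48 without HET replicate 2). C2, also of the classical pathway, was lower in KO at both days (-2.45 and -2.51, 4.07e-07 and 5.63e-08) and in HET (-1.52, 7.39e-06, and -1.51 without HET replicate 2). C1ra and C1s1, which encode the proteases that start the classical pathway, were higher in KO at day 4 and lower at day 14. With time 11 of the 18 rose and 4 fell in WT, against 39.7% and 34.9% of all genes, and 11 rose and 1 fell in KO, against 30.8% and 30.1%.

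Receptors and binding partners of the 7 proteins (17 of 24 tested) held 9 higher and 7 lower in KO at day 4, against 35.7% of all genes higher and 33.8% lower, and 8 higher and 6 lower at day 14, against 30.9% and 32.2%. In HET against WT 6 were higher and 6 lower (7 and 5 without HET replicate 2), against 28.3% and 29.9% of all genes. Slc22a17 and Lrp2, which encode cell surface receptors of Lcn2, were both lower in HET than in WT. Slc22a17 stood at 14.2 CPM in WT, 1.68 in KO and 1.34 in HET at day 14 (log2 -3.07 ± 0.16 and -3.39 ± 0.18, edgeR adjusted p = 6.6e-11 and 4.62e-11, with HET at -3.25 without HET replicate 2), while Lcn2 itself overlapped among these groups. Lrp2 stood at 10.0, 10.3 and 0.575 CPM, lower in HET (-4.10 ± 0.33, edgeR adjusted p = 2.27e-09, and -3.94 without HET replicate 2), with KO against WT at 0.05 ± 0.17 (0.826). At day 4 Lrp2 was lower in KO, at 1.45 CPM against 13.8 in WT (-3.24 ± 0.21, edgeR adjusted p = 5.81e-10). The gene of the C3a receptor, C3ar1, was below 1 CPM in all groups except KO at day 14, where it reached 16.4 ± 0.58 (SD, n = 3; log2 5.63 ± 0.33 against WT, 5.1e-12). Selp, which encodes P-selectin, a binding partner of Ptx3, had the same group as its highest, at 115 CPM, against 0.202 in WT and 0.0801 in HET. Tnfaip6, which links hyaluronan with Ptx3 in the matrix, was lower in HET than in WT (log2 -1.76 ± 0.18, edgeR adjusted p = 4.19e-07, and -1.73 without HET replicate 2), and the Ptx3 level was lower there too. Tnfaip6 was also lower in KO than in WT at day 4 and day 14 (log2 -0.43 and -0.50, edgeR adjusted p = 0.0186 and 0.0113), where Ptx3 was not lower. Has2 and Vcan, for hyaluronan synthesis and the hyaluronan-binding proteoglycan versican, fell with time in WT (-4.11 ± 0.12 and -4.18 ± 0.17, 1.52e-14 and 2.3e-11) while Ptx3 rose. With time 4 of the 17 rose and 9 fell in WT, against 39.7% and 34.9% of all genes, and 7 rose and 7 fell in KO, against 30.8% and 30.1%.

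**Figure D5:**
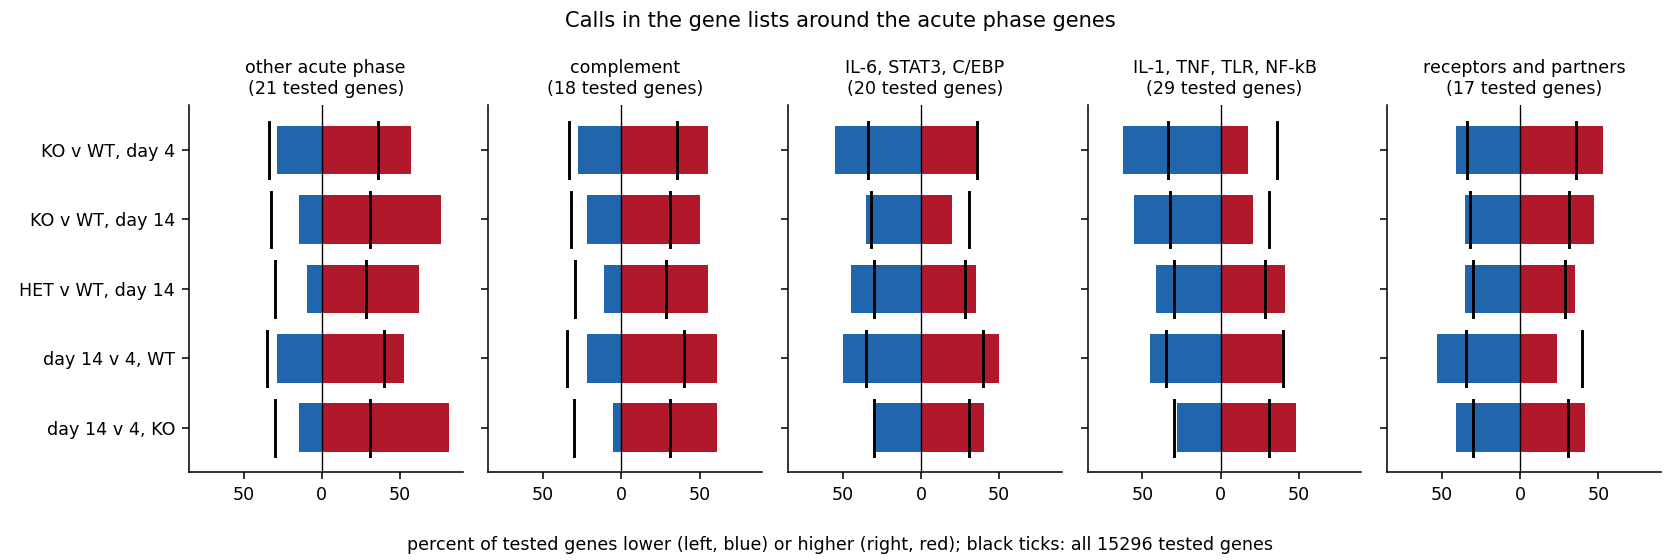
Percent of tested genes in each of 5 lists that were lower (left, blue) or higher (right, red) by edgeR adjusted p under 0.05 in 5 comparisons, with black ticks at the percent over all tested genes. The bars of the IL-1, TNF, Toll-like receptor and NF-kB list extend furthest to the left in KO against WT on both days, and those of the other acute phase genes extend furthest to the right in KO cells at day 14.

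Of 15 paralogs and related lipocalins and pentraxins, 5 passed the filter, and 3 were higher and 2 lower in KO at day 4, against 35.7% and 33.8% of all genes. Nptxr, a pentraxin receptor gene of neurons, stood at 106 CPM in WT, 40.1 in KO and 37.3 in HET at day 14, lower in HET (log2 -1.51 ± 0.07, edgeR adjusted p = 3.79e-11, and -1.46 without HET replicate 2) and KO (-1.40 ± 0.07, 6.39e-11). At day 14 the list held 1 higher and 3 lower genes in KO against WT, against 30.9% and 32.2% of all genes.

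The genes most like Saa3 over the 15 libraries, by Pearson correlation of log2 CPM, were Cd302 (r = 0.9935), Smarca4 (0.9888), Parp2 (0.9869), Bst2 (0.9846) and, somewhat lower, Casp1 (0.9807). Casp1, the gene of the protease that matures IL-1 beta, had means of 2.34 and 1.45 CPM for WT and KO on day 4, and of 16.8, 6.44 and 30.6 for WT, KO and HET on day 14. Bst2, an interferon-inducible antiviral gene, had 76.8 and 33.0 CPM, then 244, 160.3 and 526. Both had the group order of Saa3, as had the other genes most like it. All were chosen by correlation with Saa3 over these same libraries, so a like order follows largely from the choice. The gene most like Saa1 was Jdp2 (0.9844), for Saa2 it was Cdkn2aipnl (0.9893), for Lcn2 Mgst1 (0.9983), for C3 Ahnak (0.9873), for Hp Osgep (0.9891) and for Ptx3 Parn (0.9829). Among the 7 themselves, Saa3 was closest to Hp (0.932) and Saa1 (0.925), less close to Lcn2 (0.613) and C3 (0.502), and least close to Ptx3 (0.165), while Lcn2 and C3 were at 0.894. These correlations describe 15 libraries that share 5 group means, and carry no test.

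Markers of cells that make acute phase proteins were measured beside these results. The summed level of 10 hepatocyte genes was at most 2.03 CPM in any library, and Serpina1a had no count in any group. The summed level of 14 macrophage genes ranged from 3.79 to 4.80 CPM over the WT libraries of day 4 and from 10.5 to 11.1 over the KO libraries. The same sum at day 14 lay between 9.52 and 10.0 CPM for WT, between 39.5 and 42.4 for KO, and between 8.09 and 9.09 for HET. Cd68 was the highest of them in every group, and 12 of the 14 were below 1 CPM in KO at day 14. The summed level of 9 neutrophil genes was 42.4 to 45.1 CPM in KO at day 14, mostly S100a8, and 12.8 or less in all other libraries, and S100a9 had no count in any library. The KO group at day 14, where these sums were highest, was also highest for C3, Serpina3n, Orm1, C4b and C3ar1, and the part of other cells in those levels was not tested. It was the lowest of the day 14 groups for Saa3 and Hp. Col1a2, the gene of a collagen chain of fibroblasts and osteoblasts, stood at 489 CPM in HET and at 2.61 or less in the other groups.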

How the data were processed

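RNA-seq libraries (TruSeq RNA v2, a kit that does not mark strand, per the labels' protocols) of 15 samples in 5 groups were used. The deposited files hold raw read counts per Ensembl gene. Per the submitters' processing notes the authors used TopHat2 2.1.0, HTSeq, DESeq2 and the build GRCm38.p4. Their gene annotation, and whether reads were counted by strand, is not given in the sources used here. Of 46603 identifiers, 46005 were given a symbol from the reference annotation, and those without one held 0.0762% of the counts.

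Counts were filtered with filterByExpr, TMM-scaled and tested with edgeR 4.0.16 (limma 3.58.1, R 4.3.3) by the quasi-likelihood F test with robust dispersion over all 15 libraries, 1 mean per group, with Benjamini-Hochberg adjustment within each of 7 comparisons and a threshold of 0.05. The common biological coefficient of variation was 8.33%. Standard errors are Wald errors that do not fall below counting error. Library totals of 19878449 to 47486736 counts make counting error small for all genes but Saa1, Saa2, Saa4 and others of few counts. CPM per kilobase used the length of 1 principal transcript per gene from the GENCODE annotation. The likeness of genes was the Pearson correlation of log2 CPM with a prior count of 2.

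The 7 genes and all gene lists were chosen with earlier results of these data known. All 7 genes were named in every group; from each list the genes named were among the 3 higher and 3 lower with the smallest adjusted p in a comparison, or direct partners or regulators of the 7. Genes most like a member were the 8 with the highest correlation for Saa3 and the first for each other gene. Col1a2 was named after its values were seen, and Fn1 and Vim as the highest genes of its list. Alternatives were RLE scaling, DESeq2 1.42.0, a filter at 1 CPM in 3 samples or none beyond 1 count, only the groups compared, a replicate block and each library left out in turn. A spline correction for transcript length and GC content (5 degrees of freedom) and the sum of Saa1 and Saa2 were added after seeing the data. Tested on simulated counts of KO against WT at day 14 (15009 genes, 50 changed at each fold), the test recovered 72% of genes changed 1.5-fold, 86% at 2-fold, 98% at 4-fold and 100% at 8-fold, with 4 false calls among 14809 unchanged genes. The simulated libraries had few changed genes and no shift with transcript length between libraries of 1 group. In the real comparison 30.9% of genes were called higher and 32.2% lower, and WT libraries shifted with length. These rates may therefore not hold for the real data. No 2 libraries held identical values.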

Additional observations from a re-analysis of the deposited data

Results flagged for a closer look

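In 5 of the 7 genes the change from day 4 to day 14 differed between KO and WT by a test of the difference itself (KO change minus WT change, log2, edgeR), a comparison in which 30.7% of all tested genes passed higher and 34.0% lower. The difference was -2.41 for Lcn2 (adjusted p = 4.61e-11) and -2.07 for Hp (1.25e-08), each with a smaller rise in KO, and both held under all alternatives run. It was -0.47 for Saa3 (0.0418), 1.43 for Saa1 (0.0435) and -1.39 for Saa2 (0.0392). The Saa3 difference passed, among the fits that left out 1 library, only without WT replicate 1 of day 14 (0.0151). The Saa1 difference did not pass without WT replicate 1 or 3 of day 4 (0.185 and 0.0519), KO replicate 1 or 2 of day 4 (0.0911 and 0.131), WT replicate 2 or 3 of day 14 (0.0528 and 0.0702) or KO replicate 2 or 3 of day 14 (0.0685 and 0.0543). The Saa2 difference did not pass without WT replicate 1 or 2 of day 4 (0.113 and 0.0849), KO replicate 2 of day 4 (0.124), WT replicate 3 of day 14 (0.0891) or KO replicate 1 or 3 of day 14 (0.0648 and 0.0678). With Saa1 and Saa2 summed, the difference was -0.49 (0.3).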

How the results depend on the processing

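The counts of changed genes stayed within 1.5 times of the reported count in all 7 comparisons under every alternative run. For the 7 genes in the 5 tested comparisons, 439 values kept direction and call, 14 gained a call, 32 lost one and 11 changed sign. The sign changes were Saa1 in KO against WT at day 14, a value near 0, at 6e-04 (RLE scaling), 0.0022 (DESeq2), 0.0321 (no filter), 0.34 (length and GC correction) and, with single libraries left out, in 4 of 6 fits (range over the 6, -0.1032 to 0.0536, beside the reported -0.01); Lcn2 in the same comparison at 0.20 with the length and GC correction; and the Ptx3 difference in change with time at 0.006 (no filter) and 0.0269 (length and GC correction). The cause was not tested. The length and GC correction also ended the Saa3 (-0.07) and Saa2 (-0.68, adjusted p = 0.168) differences in change with time. In HET against WT and KO against HET all 182 values of the 7 genes moved by less than the spread between replicates. That spread included HET replicate 2, which widened it, and leaving out 1 library can hardly move a group mean by more. For the fits without 1 library the outcome was thus largely fixed in advance, and no stability is read from it. The Saa1 value at day 4 has no fit within those 2 groups alone, since Saa1 does not pass the filter there. Saa3 ranked 85, 2, 343 and 14 by counts in WT at day 4, WT at day 14, KO at day 4 and KO at day 14, against 4, 1, 46 and 2 per kilobase. Samples with the same replicate number did not as a rule deviate together (30 pairs, r from -0.702 to 0.763, median -0.019, 3 pairs over 0.1), so no general pairing by number was seen. HET replicate 2 and the WT libraries of day 14 deviated with transcript length, which enters these values. Whether a number marks a shared culture, embryo or batch was not tested. The replicate block gave 10538, 9551, 8783, 8999, 11310, 9241 and 9803 changed genes against 10630.0, 9653, 8910.0, 9104, 11410.0, 9316 and 9897 without it, in KO against WT at day 4 and 14, HET against WT, KO against HET, the WT and KO changes with time, and the difference of the last 2. Few counts limit Saa1, Saa2 and Saa4 at day 4.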
